A study of Danio rerio with 4 samples.

Results

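Apolipoproteins are the protein coats of the particles that carry lipids in blood. They hold the particle together, serve as cofactors of the enzymes that unload or remodel it, and act as ligands for the receptors that clear it. In fish as in mammals most of them are made in the liver and in the absorptive cells of the intestine, and in the zebrafish embryo also in the layer around the yolk. Apolipoprotein E is known from further cells, and in zebrafish larvae its gene apoeb is a common marker of microglia. The 10 genes described here were taken by name from the 42298 genes of the files: apoa1a, apoa1b, apoa2, apoa4b.1, apobb.1, apoc2, apoc4, apoea, apoeb and apom. All 10 were present in the table of each library, and all 10 passed the filter on low counts, apoc4 through its mutant reads alone.

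The libraries came from mCherry-positive cells sorted by FACS from dissociated whole zebrafish larvae at 5 days post fertilization (dpf). The 2 wild-type libraries came from Tg(ins:mCherry) larvae, and the 2 mutant libraries from larvae of genotype alms1-/- that carried the same Tg(ins:mCherry) transgene. In that line the promoter of preproinsulin drives mCherry, larvae were pooled for the sort, and the labels name no alms1 allele. The labels name β-cells as the cells enriched by the sort, and the series compares the genotypes.

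The 4 libraries held 42761199 to 50467517 reads behind the deposited values. The wild-type and mutant libraries differed in markers of several cell types, and these values stand beside every result. The insulin gene ins, which defines β-cells, had 20 and 61 reads in wild type compared with 534 and 447 in the mutants, so that the labelled cell type was little seen in the wild-type libraries. In the mutants too the reads of ins were few, out of 42761199 and 48938853 reads in all. Skin markers took 5.08% and 3.85% of the reads in wild type, against 0.668% and 0.680% in the mutants. Acinar genes of the exocrine pancreas took 0.103% and 0.125% in wild type, against 0.582% and 0.418% in the mutants, and genes of erythroid cells 0.998% and 1.48% compared with 3.38% and 2.21%. The targeted gene alms1 had 22.8 and 17.4 counts per 1000000 reads (CPM) in wild type and 10.4 and 23.1 CPM in the mutants, and its log2 fold change of -0.81 (standard error 0.37) did not pass edgeR's quasi-likelihood test (adjusted p = 0.104), so that its transcript does not check the labels. In such bulk samples fewer cells of a type and less RNA per cell cannot be told apart. Each genotype was sorted from its own larvae, so that a difference of genotype and one of the sort cannot be told apart either.

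In wild type a single gene made up most of the apolipoprotein RNA. Levels between genes are given in TPM, in which reads are divided by the length of the gene and each library is brought to an equal sum. For 99.4% of genes that length is the whole span of the gene, introns included. The order of genes by TPM therefore depends on their spans. apoeb, a ligand of the low-density lipoprotein (LDL) receptor family, had 2614 and 1709 TPM, which ranked it 44th and 59th among all genes of the files. It was followed by apoa2, a protein of high-density lipoproteins (HDL), with 459 and 439 TPM, and by apoa1b, with 300.4 and 371 TPM. The products of apoa1b and apoa1a are the main structural protein of HDL, and apoa1a had 34.3 and 38.4 TPM. apoa4b.1, a gene of the apolipoprotein A-IV family known from fat-absorbing enterocytes, had 44.3 and 45.0 TPM. Lower levels were found for apoc2, the cofactor of lipoprotein lipase, with 15.5 and 9.92 TPM. Still lower was apobb.1, which encodes the large scaffold protein of chylomicrons and very-low-density lipoproteins, with 4.33 and 4.06 TPM. The second apolipoprotein E gene, apoea, had 3.55 and 2.25 TPM. apom, which encodes a lipocalin of HDL, had 1.12 and 1.79 TPM. In this order of 10 genes each wild-type range lay apart from that of the next gene. With a limit of 10 reads and 1 TPM in each library of a group, 9 of the 10 genes were detected in wild type.

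The exception was apoc4, a small protein of triglyceride-rich particles, with 1 read in wild-type replicate 1 and 0 in replicate 2. These counts correspond to 0.111 TPM with an exact Poisson 95% interval of 0.00281 to 0.619, and to 0 TPM with an upper limit of 0.332. Such intervals cover counting error only. At this depth apoc4 was not detectable above these limits in wild type.

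**Figure D1:**
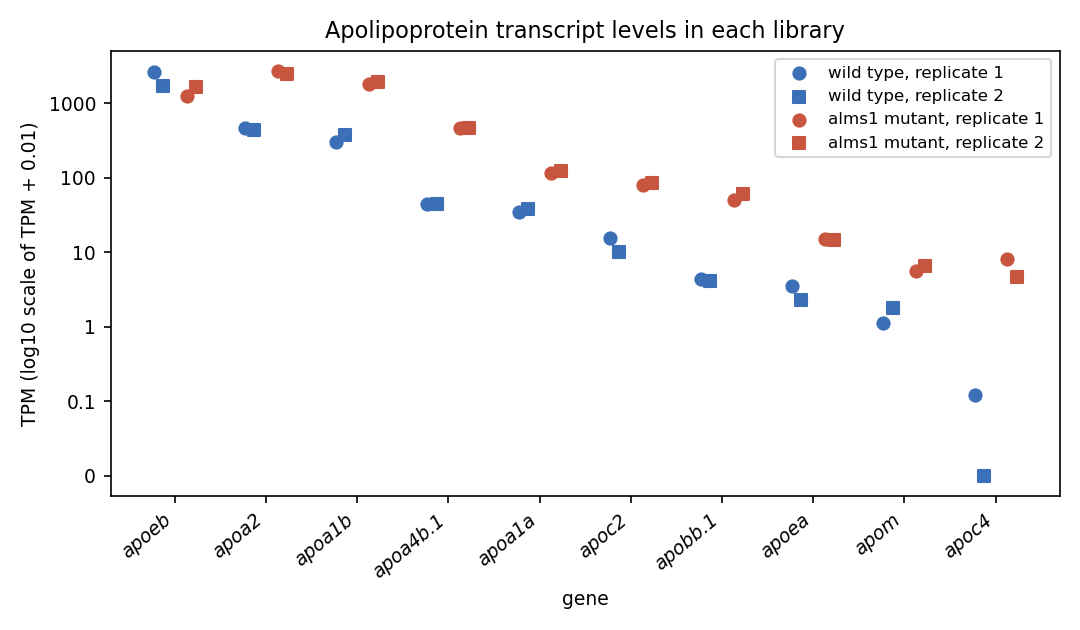
TPM of each of the 10 apolipoprotein genes (x axis) in each of the 4 libraries, on a log10 scale of TPM + 0.01 (y axis), with blue points for wild type and red points for alms1 mutants and circles and squares for replicates 1 and 2. apoeb is the only gene whose mutant points (1253 and 1650.2 TPM) lie below both wild-type points (2614 and 1709 TPM), and the other 9 genes have both mutant points above both wild-type points. These 9 include apoc4, with 1 and 0 reads in wild type, and apom, of whose reads 0 were uniquely mapped.

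In the alms1 mutants the order of the apolipoprotein genes was different at the top. apoa2 led with 2717 and 2442 TPM, apoa1b followed with 1789 and 1923 TPM, and apoeb came next with 1253 and 1650.2 TPM. By reads, which are not divided by span, apoa1b led with 31443 and 29780. apoa2 had 25053 and 19837 reads and apoeb 23575 and 27346, so that their order differed between the mutant libraries. The sequence from apoa4b.1 (459 and 470 TPM) through apoa1a (116 and 123 TPM), apoc2 (81.0 and 84.5 TPM), apobb.1 (49.7 and 60.2 TPM) and apoea (15.0 and 14.5 TPM) was the same as in wild type. At the lower end apoc4 (8.01 and 4.70 TPM) and apom (5.58 and 6.44 TPM) had ranges that overlapped. By that limit all 10 genes were detected in the mutants, on all mapped reads. On uniquely mapped reads 8 genes were detected in wild type and 9 in the mutants.

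The 10 genes together had a summed level of 3477 and 2621 TPM in wild type and 6493 and 6779 TPM in the mutants. apoeb provided 75.2% and 65.2% of that sum in wild type, against 19.3% and 24.3% in the mutants. apoa2 provided 13.2% and 16.8% in wild type, against 41.8% and 36.0% in the mutants. The share of apoa1b was 8.64% and 14.2% in wild type, against 27.5% and 28.4% in the mutants. Without apoeb the sum of the other 9 genes was 863 and 912 TPM in wild type and 5240.3 and 5129 TPM in the mutants. Shares within a library do not depend on how libraries are scaled to each other.

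**Figure D2:**
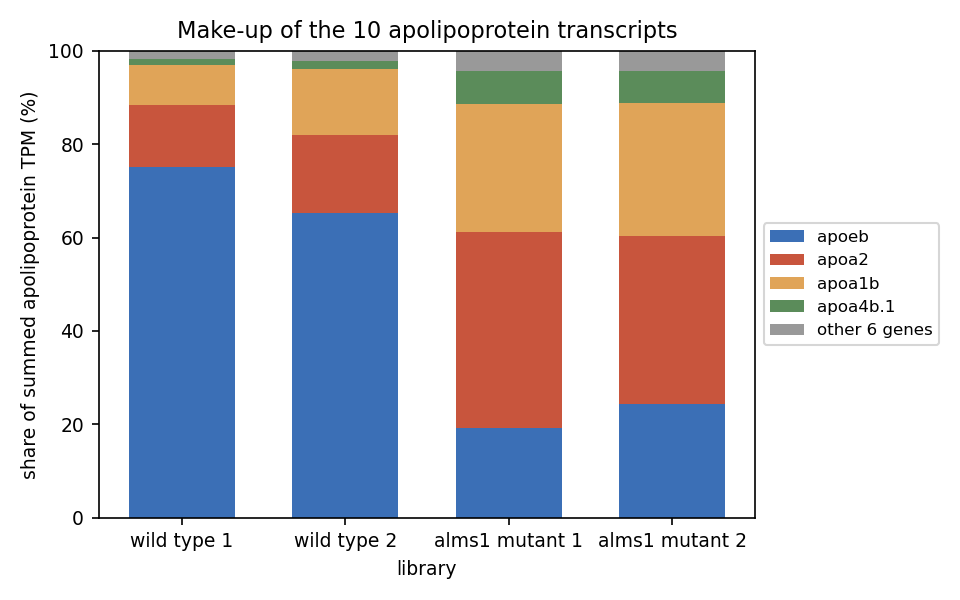
Share of the summed TPM of the 10 apolipoprotein genes (y axis, percent) taken by apoeb, apoa2, apoa1b, apoa4b.1 and the other 6 genes in each of the 4 libraries (x axis). The apoeb part covers 75.2% and 65.2% of the wild-type bars and 19.3% and 24.3% of the mutant bars.

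The mutant libraries were then compared with wild type by edgeR's quasi-likelihood test across all genes, with Benjamini-Hochberg adjustment. Of the 10 genes 7 were higher, 1 was lower and 2 did not pass. The 7 include apoc4, which entered the test through its mutant reads alone. Over all 28079 genes tested, 19.2% were higher (5380) and 24.3% lower (6835), a split that depended on the scaling, with 8145 higher and 3605 lower on library totals and 9871 and 1648 by limma-trend on log2(TPM + 1). Of the same 28079 genes, edgeR had 6958 higher and 7922 lower at an unadjusted p under 0.05, and DESeq2 called 6323 and 7429. The median log2 fold change was 1.47 over the 10 genes and 0.03 over all genes. In CPM scaled by TMM (trimmed mean of M-values) factors, the scale of this test, 9 genes had both mutant libraries above both wild-type libraries, which 39.1% of all genes tested had. For the remaining gene both mutant libraries lay below wild type, as for 37.8% of all genes. The same 9 and 1 genes were apart on the TPM scale, where 58.0% of all genes were higher and 14.1% lower in this sense. Both these 9 genes and the median of 1.47 include apoc4, tested through its mutant reads alone. They also include apom, of whose reads 0 were uniquely mapped.

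The scaffold gene apobb.1 had one of the larger rises. It had 584 and 675 reads in wild type, against 5385 and 5743 in the mutants, all of them uniquely mapped. In TMM-scaled CPM these were 12.7 and 18.8 compared with 109 and 93.3, so that the groups lay far apart. The log2 fold change came to 2.69 (standard error 0.28, adjusted p = 0.000606, edgeR), a rise of 6.45-fold. The gene lies on the plus strand of chromosome 20 of GRCz10 from 31366845 to 31382013.

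The enterocyte gene apoa4b.1 had 748 and 938 reads in wild type, against 6243 and 5624 in the mutants. Its TMM-scaled CPM were 16.2 and 26.1 in wild type, against 127 and 91.4 in the mutants, with no overlap. The log2 fold change came to 2.37 (standard error 0.31, adjusted p = 0.00110, edgeR). apoc2, the lipase cofactor gene, had 880 and 696 reads in wild type, against 3708 and 3406 in the mutants. In TMM-scaled CPM these were 19.1 and 19.4 against 75.1 and 55.3 (log2 fold change 1.76, standard error 0.26, adjusted p = 0.00163, edgeR).

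The HDL genes had smaller log2 fold changes than apobb.1 and apoa4b.1, and differences in fold change between genes were not tested. apoa2 had 114 and 173 TMM-scaled CPM in wild type, against 508 and 322 in the mutants (log2 fold change 1.53, standard error 0.32, adjusted p = 0.00614, edgeR). apoa1b had 142 and 278 TMM-scaled CPM in wild type, against 637 and 484 in the mutants (log2 fold change 1.42, standard error 0.35, adjusted p = 0.0121). Both genes rose, and the mutant libraries were higher than either wild-type library. Its paralog apoa1a, on chromosome 5 from 37378359 to 37381365, had 19.9 and 35.2 TMM-scaled CPM in wild type, against 50.3 and 37.9 in the mutants. Here the second mutant library lay close to the second wild-type library, and the log2 fold change of 0.68 (standard error 0.32, adjusted p = 0.115) did not pass. Within each library apoa1b had 8.76 and 9.66 times the TPM of apoa1a in wild type and 15.5 and 15.6 times in the mutants. apoa1b lies on the minus strand of chromosome 15 from 31383 to 33843.

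The second apolipoprotein E gene apoea, on chromosome 19 from 10936233 to 10940769, had 143 and 112 reads in wild type, against 485 and 414 in the mutants. Its TMM-scaled CPM were 3.10 and 3.11 in wild type, against 9.83 and 6.73 in the mutants (log2 fold change 1.41, standard error 0.44, adjusted p = 0.0297, edgeR), a rise. apoc4 had 1 and 0 reads in wild type, against 58 and 30 in the mutants (adjusted p = 0.00879, edgeR). It passed the filter on low counts through its mutant reads alone, which favours a call of higher. With at least 10 reads required in every library apoc4 was not tested, and 6 of the 9 genes tested were higher and 1 lower. Over all genes that setting called 5828 of 25405 higher and 6680 lower. The ratio of apoc4 reads relative to the scaled library sizes was 65.2 with an exact 95% interval of 11.4 to 2603, which covers counting error only.

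apoeb moved the other way. It had 61149 and 49297 reads in wild type, against 23575 and 27346 in the mutants, all of them uniquely mapped. In TMM-scaled CPM it had 1325 and 1371 in wild type, against 478 and 444 in the mutants, far apart. The log2 fold change came to -1.55 (standard error 0.26, adjusted p = 0.00263, edgeR), a level 2.92-fold lower. On the TPM scale the distance was smaller, with 1709 TPM in the lower wild-type library and 1650.2 TPM in the higher mutant library. There, by limma-trend on log2(TPM + 1), the log2 fold change of -0.56 did not pass (adjusted p = 0.0874). On that scale the median over all genes was 0.69, so that apoeb lay further below the median gene than its own value. The ratio of apoa2 to apoeb TPM within a library was 0.176 and 0.257 in wild type, against 2.17 and 1.48 in the mutants. The ratio of apoeb to its paralog apoea was 737 and 758 in wild type, against 83.7 and 114 in the mutants. With 2 libraries against 2 an exact permutation test of such a ratio cannot give a two-sided p below 0.333.

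**Figure D3:**
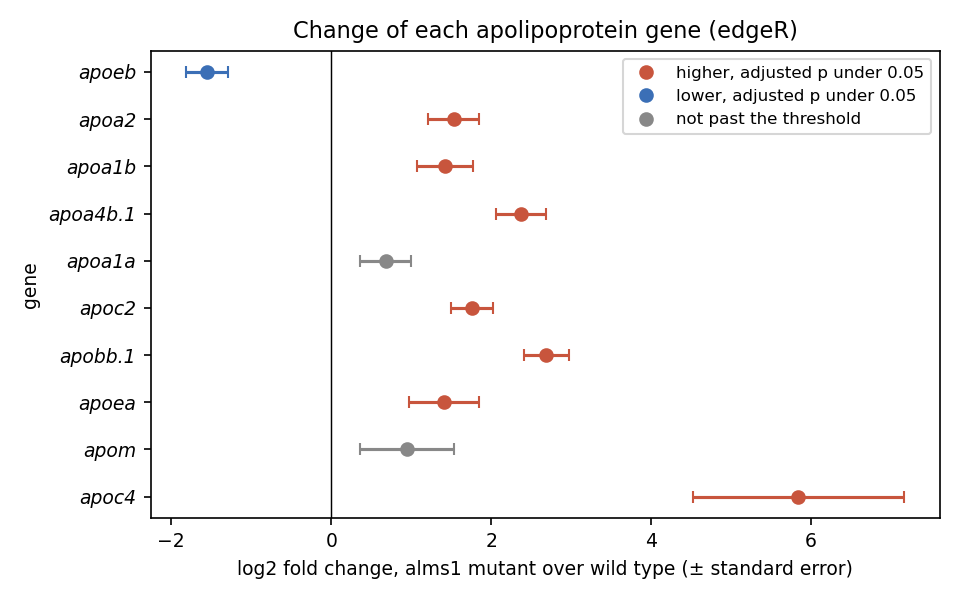
Log2 fold change of alms1 mutant over wild type (x axis) for each of the 10 apolipoprotein genes (y axis), with bars of 1 standard error from edgeR and colours for the genes past an adjusted p of 0.05. 7 genes lie to the right of 0 and past the threshold, apoeb lies to the left at -1.55, and apoa1a and apom (grey) did not pass.

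Leaving out 1 mutant library changed several of these calls. Without alms1 mutant replicate 1 edgeR called 3 genes higher (apoa4b.1, apobb.1 and apoc2) and 0 lower, while 6 were higher and 1 lower at an unadjusted p under 0.05. There apoa1b had an adjusted p of 0.0864, apoa2 of 0.0636, apoc4 of 0.0733, apoea of 0.204 and apoeb of 0.0566. Without alms1 mutant replicate 2 edgeR called 6 genes higher and 0 lower, with adjusted p = 0.0580 for apoea and 0.0807 for apoeb, and 7 higher and 1 lower at an unadjusted p under 0.05. DESeq2 on all 4 libraries called 7 higher and 1 lower.

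apom could not be assessed from these reads. It had 58 and 114 reads in wild type, against 232 and 236 in the mutants, and 0 of them were uniquely mapped. Its whole span on the minus strand of chromosome 2, from 42379323 to 42385143, lies within efr3a on the plus strand, which runs from 41909111 to 43090853. The library kit does not mark strand, so that the reads of both genes cannot be told apart. apom had 9.96 and 19.6 reads per kb in wild type, against 39.9 and 40.5 in the mutants, and efr3a had 19.8 and 17.4 and 25.9 and 31.1. The log2 fold change of apom was 0.95 (standard error 0.59, adjusted p = 0.214, edgeR).

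For the remaining genes reads with several mapping places played little part. In 8 of the 10 genes every read was uniquely mapped in every library, the single wild-type read of apoc4 included. For apoa4b.1, which has close copies next to it, 99.3% to 99.8% were. Over the 10 genes together the uniquely mapped share had a mean of 99.9% in wild type and 99.7% in the mutants. On uniquely mapped reads alone apom could not be tested, and 7 of the other 9 genes were higher and 1 lower. Over all genes that setting called 5436 of 26839 higher and 6775 lower.

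Levels were also set against the reads that long genes collect over their introns. In the files the exon length equals the gene length for 99.4% of genes, and the number of reads over exon junctions was 0. In reads per kb, the 10th percentile over 1509 protein-coding genes with spans of 80 to 160 kb was 8.03 and 5.23 in wild type, against 15.0 and 21.8 in the mutants. apoeb had 2893 and 3581 times that level in wild type and 596 and 477 times in the mutants. apobb.1 had 4.80 and 8.51 times that level in wild type and 23.7 and 17.4 times in the mutants. apoea had 3.93 and 4.72 times that level in wild type and 7.12 and 4.19 times in the mutants. apoc4 had 0.123 and 0 times that level in wild type, against 3.81 and 1.36 times in the mutants, so that its level in alms1 mutant replicate 2 was near that of the long genes. After subtraction of that level, an alternative chosen once the data had been seen, apoc4 was no longer among the genes tested. In the same fit the log2 fold change of apoea was 2.14 with an adjusted p of 0.0659 (edgeR).

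5 of the 10 genes lie together in a cluster of 77.1 kb on the plus strand of chromosome 16, which holds 8 genes with apolipoprotein names. In the order of the chromosome these are apoa4b.1 (23999046 to 24000948), apoa4b.3, apoa4b.2, apoeb (24045796 to 24048429), apoc1l, apoc4 (24061004 to 24062017), apoa2 (24063946 to 24065236) and apoc2 (24069723 to 24076129). Of the 8 genes 6 were higher in the mutants, apoeb was lower and apoc1l did not pass. The 6 include apoc4, which had 1 and 0 reads in wild type. Over all genes tested 19.2% were higher and 24.3% lower. apoa4b.2 had 10.9 and 14.5 TPM in wild type and 200.5 and 226 TPM in the mutants (log2 fold change 3.01, standard error 0.41, adjusted p = 0.00130, edgeR). apoa4b.3 had 2.25 and 1.28 TPM in wild type and 29.6 and 32.8 TPM in the mutants (log2 fold change 3.21, standard error 0.57, adjusted p = 0.00337). apoc1l, listed by RefSeq as a synonym of apoc1, had 43.1 and 62.6 TPM in wild type and 128 and 111 TPM in the mutants. On the TMM scale its log2 fold change came to 0.13 (standard error 0.42, adjusted p = 0.819). Of the genes with apolipoprotein names, the one next to apoeb upstream, at 12.4 kb, was higher, and the change of the one next to it downstream, at 8.7 kb, did not pass. Between apoeb and apoc1l lies LOC108179601 on the minus strand, which overlaps apoc1l and had a log2 fold change of 2.32 (standard error 1.14, adjusted p = 0.127, edgeR).

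**Figure D4:**
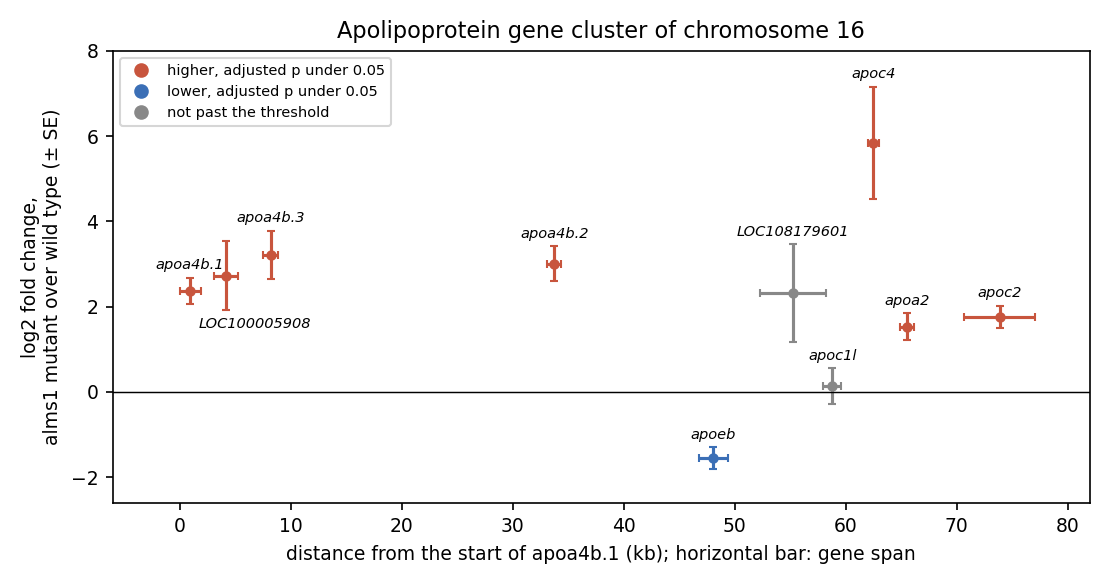
Log2 fold change of alms1 mutant over wild type with bars of 1 standard error (y axis) along the apolipoprotein gene cluster, against the distance from the start of apoa4b.1 in kb (x axis), where horizontal bars are gene spans. 6 apolipoprotein genes lie above 0 and past the threshold, apoeb lies at -1.55, and apoc1l at 0.13 did not pass.

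A second, smaller group on chromosome 19 holds apoea and apoa4a, 4.1 kb apart. apoa4a, another gene of the A-IV family, had 4.74 and 1.68 TPM in wild type and 19.7 and 66.0 TPM in the mutants, with a wide gap between the mutant libraries. The log2 fold change came to 2.75 (standard error 0.50, adjusted p = 0.00360, edgeR).

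Beyond the 10 genes, 12 further genes with apolipoprotein names were found in the files and 11 were tested, of which 5 were higher and 4 lower. That split depended on the scaling, with 5 higher and 2 lower on library totals and 7 higher and 1 lower by limma-trend on log2(TPM + 1). The lipocalin gene apoda.2 had 42.4 and 45.8 TPM in wild type and 304 and 296 TPM in the mutants (log2 fold change 1.75, standard error 0.32, adjusted p = 0.00402, edgeR). A second large scaffold gene, apoba, had 2.70 and 0.516 TPM in wild type and a mean of 13.7 TPM in the mutants (log2 fold change 2.27, standard error 0.49, adjusted p = 0.00747), and was named after its values were seen. apof had 120.2 and 39.0 TPM in wild type and 28.3 and 36.4 TPM in the mutants (log2 fold change -2.16, standard error 0.33, adjusted p = 0.00194). However, 0 of its reads were uniquely mapped and its span overlaps that of stat2. Which of the genes these reads came from was not tested. Also lower by edgeR were apodb (log2 fold change -2.07, adjusted p = 0.00249), apol1 (-1.4, adjusted p = 0.0108) and apool (-1.14, adjusted p = 0.0318). Most reads of these genes were uniquely mapped in both groups, and they too were named after their values were seen. apobb.2 had no read in any library.

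Genes that build, remodel or take up lipoproteins were called in both directions, as were all genes tested, of which 19.2% were higher and 24.3% lower. Over the 3 lists together 19 of 51 genes were higher and 15 lower, and whether this differs from the share over all genes was not tested. Of 20 genes for the assembly of particles 8 were higher and 6 lower, with a median log2 fold change of 0.74. These counts were 5 and 4 without alms1 mutant replicate 1 or without wild type replicate 2, 5 and 3 without alms1 mutant replicate 2, and 10 and 2 by limma-trend on log2(TPM + 1). sar1b, a GTPase gene needed to export chylomicrons, had 88.2 and 64.0 TPM in wild type and 26.7 and 39.3 TPM in the mutants (log2 fold change -2.21, standard error 0.23, adjusted p = 0.000611, edgeR). creb3l3l, of a family of transcription factors active in liver and intestine, fell as well, from a mean of 61.0 TPM to a mean of 30.7 TPM (log2 fold change -1.99, standard error 0.22, adjusted p = 0.000699). The gene of the microsomal transfer protein that loads lipid onto apolipoprotein B, mtp, was named after its values were seen. It had 1.07 and 0.577 TPM in wild type and 3.34 and 9.24 TPM in the mutants (log2 fold change 1.90, standard error 0.44, adjusted p = 0.00992).

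Of 12 genes of lipases and particle remodelling 2 were higher and 6 lower, with a median of -0.59 that was 0.26 on log2(TPM + 1). The number lower was 3 without either mutant library and 2 on log2(TPM + 1), and the number higher was 4 without wild type replicate 1. The lipoprotein lipase gene lpl, whose enzyme needs the product of apoc2, had 122 and 30.4 TPM in wild type and 24.2 and 37.2 TPM in the mutants. The first wild-type library alone was high on this scale, and the groups overlapped. On the TMM scale its log2 fold change came to -2.16 (standard error 0.41, adjusted p = 0.00420, edgeR). angptl4, which encodes an inhibitor of lipoprotein lipase, had 407 and 213 TPM in wild type and 117 and 185 TPM in the mutants (3.99-fold lower on the TMM scale, standard error of the log2 fold change 0.25, adjusted p = 0.000930).

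Of 19 genes of lipoprotein receptors and their partners 9 were higher and 3 lower, with a median of 0.73. Without alms1 mutant replicate 1 there were 3 higher and 2 lower, and without its replicate 2 there were 4 and 2. The LDL receptor gene ldlra, whose protein binds apolipoproteins B and E, had 19.2 and 16.6 TPM in wild type and 6.07 and 8.59 TPM in the mutants (log2 fold change -2.32, standard error 0.25, adjusted p = 0.000663, edgeR). lrp2a, the gene of the endocytic receptor megalin, had 0.669 and 0.402 TPM in wild type and 2.55 and 5.79 TPM in the mutants (log2 fold change 1.94, standard error 0.28, adjusted p = 0.00154). The receptor chaperone gene lrpap1 had 11.5 and 8.44 TPM in wild type and 11.4 and 11.1 TPM in the mutants, and did not pass (adjusted p = 0.0658).

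Markers of liver and intestine, which hold none of the 10 genes, were examined beside them. Of 26 liver genes 19 were higher and 1 lower (median log2 fold change 1.45), and of 22 intestine genes 16 were higher and 0 lower (median 1.46), by edgeR. Without alms1 mutant replicate 1 edgeR called 8 liver and 9 intestine genes higher, and without its replicate 2 13 and 11. DESeq2 called the same number of intestine genes, and at an unadjusted p under 0.05 edgeR called 17 higher and 0 lower. The enterocyte fatty acid binding protein gene fabp2 had 23.8 and 26.5 TPM in wild type and 261 and 246 TPM in the mutants (log2 fold change 2.32, standard error 0.34, adjusted p = 0.00161). The transferrin gene tfa had 16.6 and 11.7 TPM in wild type and 72.9 and 95.5 TPM in the mutants (log2 fold change 1.59, standard error 0.22, adjusted p = 0.00138). The lower gene was rbp4, which encodes the retinol carrier of plasma, with 1483 and 1801 TPM in wild type and 757 and 715 TPM in the mutants (log2 fold change -2.19, standard error 0.38, adjusted p = 0.00323). The summed level of the intestine genes was 93.2 and 69.7 TPM in wild type and 439 and 484 TPM in the mutants. That of the other 25 liver genes was 102 and 67.0 TPM in wild type and 393 and 489 TPM in the mutants. With rbp4 included the liver sum fell, from 1585 and 1868 TPM in wild type to 1150 and 1204 TPM in the mutants. The intestine sum rose, as did that of all 10 apolipoprotein genes, while the liver sum rose only without rbp4. Leaving out rbp4, the only liver gene called lower, favours a rise of the rest, and the same holds for apolipoprotein sums without apoeb. On the TPM scale 58.0% of all genes tested had both mutant libraries above both wild-type libraries. The part of liver and intestine in the result was not tested.

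Acinar and muscle markers moved in the same direction. Of 18 acinar genes 16 were higher and 0 lower (median 1.47), with 16 higher and 0 lower at an unadjusted p under 0.05 and by DESeq2. Without alms1 mutant replicate 1 the number of acinar genes called higher was 8. Of 15 muscle genes 11 were higher and 0 lower (median 0.95) by edgeR, and 13 higher and 0 lower by DESeq2. The muscle count rested on both mutant libraries, with 0 called without alms1 mutant replicate 1 (3 higher and 0 lower at an unadjusted p under 0.05) and 3 without replicate 2, and it was 6 with the replicate number as a block. The trypsin gene prss59.2 had 776 and 771 TPM in wild type and 4896 and 4708 TPM in the mutants (log2 fold change 1.63, standard error 0.32, adjusted p = 0.00515, edgeR). Of 23 β-cell genes 5 were higher and 1 lower, near the 19.2% of all genes that were higher, and the counts were 10 and 0 on library totals and 14 and 0 by limma-trend on log2(TPM + 1). Without alms1 mutant replicate 1 or 2 there were 2 or 3 higher and 0 lower. Of 9 erythroid genes 2 were higher and 0 lower (3 and 0 at an unadjusted p under 0.05), also near that share. For this list DESeq2 called 4 higher, edgeR on library totals 6 and limma-trend 8, and edgeR called 0 without either mutant library, 3 without wild type replicate 1 and 5 without replicate 2.

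Like apoeb, part of the macrophage markers and all skin markers were lower in the mutants. Of 12 macrophage genes 7 were lower and 0 higher (median log2 fold change -1.41), with 8 lower and 0 higher at an unadjusted p under 0.05 and 8 lower by DESeq2. The number called lower was 4 without alms1 mutant replicate 2 and 4 on library totals. ctsba, the gene of a lysosomal protease, had 159 and 171 TPM in wild type and 76.9 and 83.3 TPM in the mutants (log2 fold change -2.07, standard error 0.31, adjusted p = 0.00183, edgeR). mfap4 had 198 and 107 TPM in wild type and 92.0 and 105 TPM in the mutants (log2 fold change -1.55, standard error 0.24, adjusted p = 0.00199). The 5 macrophage genes not called had log2 fold changes of 0.16 (csf1ra), 0.11 (slc7a7), -0.1 (spi1b), -0.44 (grn1) and -1.28 (c1qa). In TPM all of these except c1qa were higher in both mutant libraries than in either wild-type library. The summed level of the macrophage genes was 726 and 481 TPM in wild type and 378 and 465 TPM in the mutants. apoeb had 3.60 and 3.56 times that sum in wild type and 3.31 and 3.55 times in the mutants. Of 18 skin genes 18 were lower (median -2.93), among them the keratin gene krt4 (log2 fold change -3.40, standard error 0.39, adjusted p = 0.000762, edgeR). Their sum was 83293 and 52548 TPM in wild type and 12277 and 15611 TPM in the mutants, and apoeb had 0.0314 and 0.0325 times that sum in wild type and 0.102 and 0.106 times in the mutants. The part of these cells in the level of apoeb was not tested. On the TPM scale with a pseudocount of 1 the macrophage median was -0.26 and 1 gene was lower, while the skin median was -1.87 and 16 genes were lower.

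**Figure D5:**
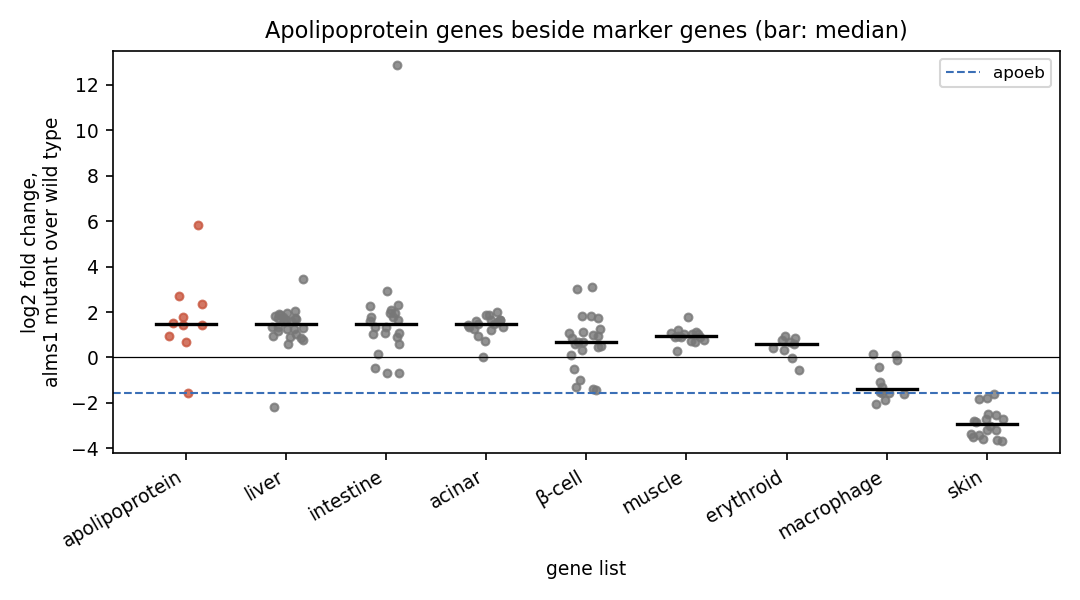
Log2 fold change of alms1 mutant over wild type (y axis) for the 10 apolipoprotein genes (red) and for marker genes of other tissues (grey), 1 point per tested gene, with a black bar at the median of each list (x axis) and a dashed line at the value of apoeb. The medians are 1.47 for apolipoprotein, 1.45 for liver, 1.46 for intestine and 1.47 for acinar genes, compared with -1.41 for macrophage and -2.93 for skin genes.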

How the data were processed

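The data were RNA-seq counts of 2 wild-type and 2 alms1 mutant libraries of sorted cells. The authors used GRCz10 as reference and CLC Genomics Server, version 10.0.1. For the annotation and for read filters, nothing was given in the sources used here. The deposited counts are whole numbers of all and of uniquely mapped reads per gene, and the deposited TPM and RPKM are reads per kb scaled by the authors' program. Counts were all exon reads, or all gene reads where no exon was annotated (15924 genes). Recomputed and deposited TPM lay within 1.75e-10 of each other. Nothing in the sources says whether the duplicates came from separate sorts, so p-values measure only the spread between these libraries, which may be technical. Wild-type totals were 50467517 and 47766482 reads, and mutant totals 42761199 and 48938853.

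The genotypes were tested against each other with edgeR 4.0.16 under R 4.3.3 (TMM, filterByExpr, quasi-likelihood F test, Benjamini-Hochberg adjustment at 0.05 over all genes). The standard error is the log2 fold change divided by the square root of F. Tests were checked on simulated counts with few changed genes, as many raised as lowered, which does not check the scaling between these libraries. Alternatives were DESeq2 1.42.0, library totals, whole-gene reads, uniquely mapped reads, limma-trend (limma 3.58.1) on log2(TPM + 1) or log2(TPM + 0.1), other filters, genes spanning under 10 kb, a replicate block and leaving out each library. The 10 genes and all lists were chosen with earlier results of these data known. From each list the text names genes among the 2 with the highest mean TPM and the 2 with the smallest adjusted p. Some genes that this rule would name are not reported here. Chromosome numbers were taken from the GRCz12tu chromosome that holds most shared gene symbols (98.4% to 98.8% for those printed), with no coordinate from that assembly. Lists were described by counts and medians, with no test of a list. Tables used Python 3.11.15 with scipy 1.17.1, numpy 2.4.6 and pandas 2.3.3, and plots matplotlib 3.10.9.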

Additional observations from a re-analysis of the deposited data

How the results depend on the processing

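No value named for the 10 genes reversed its sign in any alternative. Leaving out 1 library at a time gave 3 to 8 of the 10 genes higher and 0 to 1 lower, 17 to 32 liver and intestine genes higher compared with 35, and 9 to 23 pathway genes higher compared with 19 and 8 to 16 lower compared with 15. These fits hold 3 libraries, and the lone sample of a group is assumed to vary like the other group. limma-trend on log2(TPM + 1) and on log2(TPM + 0.1) called 0 of the 10 genes lower (9 higher), where 1 and 0 were lower at an unadjusted p under 0.05, and 6 and 4 pathway genes lower. The median over all genes was 0.69 and 0.98 there, 0.57 with library totals and 0.03 by TMM, and edgeR on library totals called 8 pathway genes lower. Among genes spanning under 10 kb, where fewer genes were tested, 16 liver and intestine genes and 3 pathway genes were higher and 6 pathway genes lower. With the long-gene level subtracted, chosen after seeing the data, 22 liver and intestine genes were higher and 9 pathway genes lower. Over all genes these settings called 8768 higher and 1495 lower (log2(TPM + 0.1)), 1553 and 1643 (under 10 kb), 2455 and 3579 (long-gene level subtracted), and 2911 and 4610 or 2310 and 3975 without alms1 mutant replicate 1 or 2. The cause of the other differences was not tested. The uniquely mapped share in the mutants was 99.73% when exon reads were counted and 99.74% when all gene reads were counted. With the replicate number as a block 6 of the 10 genes were higher and 1 lower, and apoea had an adjusted p of 0.0521. The block changed no other call of the 10 genes, and over all 28079 genes it called 4842 higher and 6136 lower. The deviations of same-numbered libraries correlated at -0.075, and the numbers are not stated to pair them. apoa1a passed in 6 of 15 alternatives, among them library totals (1.25), limma-trend on log2(TPM + 1) (1.69) and without wild type replicate 2 (1.16).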

Other observations

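Some reads of the 10 genes were counted to the gene but not to its annotated exon. For apoa2 these were 13.0% and 14.7% of its gene reads in wild type, against 13.4% and 13.7% in the mutants, and for apoc4 26.6% in alms1 mutant replicate 1. For the other 8 genes they were at most 3.45% in any library. When all gene reads were used, the log2 fold change of apoa2 was 1.52 and that of apoc4 6.28.

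Between the A-IV genes of the chromosome 16 cluster lies LOC100005908, without a name in the files, which had 8 and 12 reads in wild type, against 100 and 83 in the mutants (log2 fold change 2.73, standard error 0.80, adjusted p = 0.0239, edgeR). The nearest genes outside the cluster, gtpbp10 and bcam, had log2 fold changes of -0.81 (adjusted p = 0.105) and 0.33 (adjusted p = 0.228). apoa1b and apoa2 kept a ratio of 0.654 and 0.845 in wild type, against 0.658 and 0.788 in the mutants, in TPM within each library.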
